A study of Homo sapiens with 2 samples.

Results

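Neuroendocrine and neuronal marker genes were examined in H1993, an established lung adenocarcinoma cell line with amplification of the receptor tyrosine kinase gene MET, and in a derivative of it that is resistant to the MET kinase inhibitor PHA665752. The 9 genes were chosen by symbol, with earlier results of these same libraries known: CHGA, SYP, SYT1, INSM1, DLL3, NCAM1, UCHL1, ENO2 and ELAVL2. All 9 were found among the 18944 genes of the deposited count table. There was 1 RNA-seq library of each line. Per the labels, the parental library has DMSO as its treatment. The resistant line was selected in PHA665752 raised from 1 nM to 1 µM, held at 1 µM, and kept for 1 week in medium without drug before it was used, and its library has PHA665752 as its treatment. The labels leave unsaid whether the cells were in drug at RNA extraction, whether the line is 1 clone or a pool, or how many cultures were made.

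Neuroendocrine cells of the lung are sparse airway epithelial cells that store peptides and amines in dense-core granules and release them much as neurons do. Their tumours are recognised by granule and vesicle proteins (chromogranin A, synaptophysin), by the adhesion molecule NCAM1 (CD56) and by the transcription factor INSM1, while the factor NEUROD1 and the NOTCH inhibitor DLL3 mark small cell tumours. Change towards small cell neuroendocrine histology is a known form of escape of lung adenocarcinoma from EGFR inhibitors. UCHL1, ENO2 and ELAVL2 are expressed in neurons and neuroendocrine cells but are also found outside them, which makes them less specific.

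The sequence just before the start is shown for UCHL1, for ELAVL2 and for 2 of the vesicle and granule genes, CHGA and SYT1. RefSeq (GRCh38.p14) gave windows of 250 bases before the annotated start for 6 of the 9 genes. Stretches outside annotated GENCODE v29 exons are printed for SYT1 and ELAVL2. For UCHL1 and CHGA, 30 bases around a match are printed, which lie wholly or largely in exons of other transcripts of each gene. Capitals mark matches, on either strand, to CCAAT, to TATAAA or to the cyclic AMP response element TGACGTCA.
UCHL1, chr4:41256887-41256916, plus strand: tctggccggcgcTTTATAgctgcagcctgg
CHGA, chr14:92923085-92923114, plus strand: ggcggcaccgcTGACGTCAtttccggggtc
SYT1, chr12:78864524-78864668, plus strand: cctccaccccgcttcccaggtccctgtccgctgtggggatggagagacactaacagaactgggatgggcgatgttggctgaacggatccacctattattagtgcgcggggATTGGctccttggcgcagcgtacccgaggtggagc
ELAVL2, chr9:23826338-23826490, minus strand: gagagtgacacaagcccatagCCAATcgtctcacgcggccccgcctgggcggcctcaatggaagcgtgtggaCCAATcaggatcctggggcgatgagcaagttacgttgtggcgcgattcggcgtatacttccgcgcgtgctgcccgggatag

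The TATAAA match of UCHL1 began 29 bases before the start, on the reverse strand. The most upstream window of ELAVL2 also held TATAAA, 32 bases before its start and outside the stretch shown. TATAAA on either strand was found in 10.7% of all 35116 windows of this length, CCAAT in 32.0% and TGACGTCA in 1.65%. The match of CHGA began 54 bases before its start. The window of SYT1 held 2 CCAAT matches and the most upstream of the 6 windows of ELAVL2 also held 2, so a gene higher in the resistant library and one lower in it shared these letters. The core of the RE1 site, which is bound by REST, the repressor of neuronal genes, was searched on both strands. It was in 0 of the windows of the marker genes and in 0.0456% of all windows. CpG dinucleotides numbered 20 in the window of UCHL1, 13 in that of SYT1 and 30 in that of ENO2, against a median of 11 over all windows. The most upstream window of ELAVL2 held 19, and its 6 windows ran from 9 to 33.

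The libraries were close in depth, at 16723181 parental and 17086748 resistant counts. CPM below are counts scaled to library size, after TMM scaling (a trimmed mean of the genes' ratios). Where a pair of values is given, the parental one comes first. Comparison was limited to the 12245 genes that reached 1 CPM in either library. A call of higher or lower needed a log2 ratio (resistant over parental, 0.5 added to each count) of 1 or more in size, that is 2-fold, and an exact 95% interval that excluded 0. By this rule 12.1% of the compared genes were higher and 8.29% lower in the resistant library. Intervals cover counting error only. With 1 library per line there is no replicate check, no test and no p-value, and every value describes these 2 libraries.

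Of the 9 marker genes, 6 reached 1 CPM in at least 1 library. UCHL1, ENO2, DLL3, SYT1 and NCAM1 were at least 2-fold higher in the resistant library, where 12.1% of the compared genes were, and ELAVL2 was lower, with 8.29%. The highest CPM of the genes that passed ran down to 1.47 (NCAM1), and the nearest gene that did not pass was SYP, at 0.53. Only UCHL1 and ENO2 passed the filter in both libraries. DLL3, SYT1 and NCAM1 passed through the resistant library alone and ELAVL2 through the parental alone, so for these 4 the filter fixed the direction. With the authors' deposited log2 values and a difference of 1, UCHL1 and DLL3 were higher and ELAVL2 lower, where 7.56% and 4.83% of the compared genes were. The genes were chosen with these values known, so nothing is read from their number against any of these shares.

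**Figure D1:**
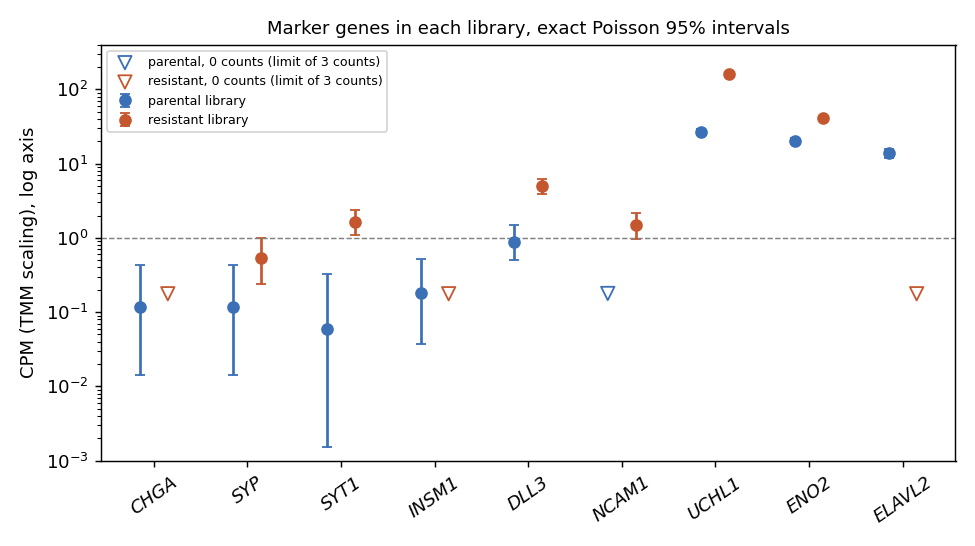
CPM of the 9 marker genes (log axis) in the parental (blue) and resistant (red) library, with exact Poisson 95% intervals. Open triangles stand for 0 counts, drawn at the limit of 3 counts, and the dashed line is 1 CPM. UCHL1 and ENO2 lie far above the line in both libraries, ELAVL2 in the parental one alone, and CHGA, SYP and INSM1 stay below it.

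The defining granule and vesicle markers were at the edge of detection. CHGA encodes chromogranin A, the core protein of dense-core granules. It had 2 and 0 counts. SYP encodes synaptophysin, a membrane protein of small synaptic vesicles. It had 2 and 9 counts, a ratio of 4.46 whose interval ran from 0.924 to 42.4 and so included 1. INSM1, the zinc finger transcription factor of neuroendocrine differentiation, had 3 and 0 counts. Where 0 was counted, the limit is 3 counts, equal to 0.178 and 0.177 CPM. At this depth no difference between the lines was detectable for these 3 genes.

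SYT1 encodes synaptotagmin 1, the calcium sensor that triggers vesicle fusion. It had 1 count in the parental library and 28 counts, or 1.65 CPM (95% interval 1.10 to 2.38), in the resistant one. The ratio was 27.8, with an interval from 4.59 to 1135. NCAM1, the neural cell adhesion molecule read as CD56 in pathology, had 0 and 25 counts and reached 1.47 CPM (0.953 to 2.17). By the near limit of the exact interval it was at least 6.24-fold higher in resistant cells, and 8.26-fold with the 0 set at 3 counts. Both genes were therefore scarce also where they were higher. The authors' normalized log2 values differed by 0.41 for SYT1 and 0.317 for NCAM1. Those values lay between 0 and 1 in both libraries, a range in which the difference of 1 cannot be reached.

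DLL3 encodes an atypical NOTCH ligand that sits mainly in the Golgi and dampens NOTCH signalling in the cell that makes it. It had 15 counts, or 0.891 CPM (0.499 to 1.47), in the parental library and 84 counts, or 4.95 CPM (3.95 to 6.13), in the resistant one. This was 5.55-fold higher in resistant cells (3.18 to 10.4), and the CPM intervals of the 2 libraries did not overlap. Its deposited log2 values differed by 1.28.

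UCHL1 was the most abundant of the 9 genes in both libraries on the scale that takes length into account. It encodes a ubiquitin C-terminal hydrolase, also called PGP9.5, that makes up a large part of the soluble protein of neurons. It had 454 counts, or 27.0 CPM (24.6 to 29.6), in the parental library and 2760 counts, or 162.6 CPM (156.6 to 168.8), in the resistant one. The gene was thus well expressed in the parental line and 6.03-fold higher in the resistant one (5.46 to 6.67). Of the 12245 compared genes, 598 had a log2 ratio at or above that of UCHL1 (2.59). By deposited log2 value its rank among the 18944 genes was 3031 in the parental library and 462 in the resistant one.

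ENO2 encodes neuron-specific enolase, the glycolytic isoenzyme of neurons and neuroendocrine cells. It had 340 counts, or 20.2 CPM (18.1 to 22.5), and 690 counts, or 40.6 CPM (37.7 to 43.8). Its level was 2.01-fold higher in resistant cells (1.76 to 2.30), with a log2 ratio of 1.01 that lies almost on the threshold. The call was lost with scaling by total counts (0.99) and with the deposited log2 values (0.935). As many as 1474 compared genes had a ratio at or above that of ENO2.

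ELAVL2 went the other way. It encodes HuB, a neuronal RNA-binding protein that stabilises AU-rich messenger RNAs. It had 232 counts, or 13.8 CPM (12.1 to 15.7), in the parental library and 0 counts in the resistant one. By the near limit of the exact interval it was at least 62.9-fold lower there, and it was 78.0-fold lower with the 0 set at 3 counts. A parental count of 232 or more beside 0 resistant counts was found for 7 genes of the whole table, ELAVL2 included. The parental library thus held ELAVL2 transcripts well above the detection limit and the resistant library none that were counted.

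The 9 genes were put in order of level on a scale that takes length into account. The deposited log2 values served for this: without the log and with 1 taken off, they equalled CPM multiplied by a factor per gene. That factor was the same in both libraries within 0.1 on the log2 scale for 98.4% of the 8335 genes with over 200 counts in each. Across 8199 of these genes it fell as the length of the longest GENCODE v29 transcript rose (slope -0.97 on log2 scales, Pearson's r -0.82, a description across genes). On this length-scaled level the order in the parental library was UCHL1 at 28.4 (counting interval 25.8 to 31.1), ENO2 at 8.77 (7.87 to 9.76), ELAVL2 at 3.74 (3.27 to 4.25) and DLL3 at 0.458 (0.256 to 0.755). These 4 were separated by more than their counting error. INSM1, CHGA, SYP and SYT1 followed at 0.0651 or less, each on 1 to 3 counts and with overlapping intervals, and NCAM1 was listed at 0. In the resistant library UCHL1 stood at 171.7 (165.3 to 178.2), ENO2 at 17.7 (16.4 to 19.1) and DLL3 at 2.54 (2.02 to 3.14). SYT1, NCAM1 and SYP came next at 0.346 (0.230 to 0.501), 0.246 (0.159 to 0.363) and 0.229 (0.105 to 0.436), and did not differ beyond counting error.

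The relatives of each marker show how much of its family it makes up. Among the ubiquitin C-terminal hydrolases, UCHL1 held 28.9% of the family's summed length-scaled level in parental cells and 65.4% in resistant cells. UCHL3, its closest relative, had 338 and 183 counts (log2 ratio -0.89), and UCHL5, a hydrolase of the proteasome, had 1210 and 1350 (0.15). The chromatin-associated tumour suppressor gene BAP1 was also higher, at 71.1 and 168.7 CPM (2.37-fold, 2.22 to 2.54). Among the ELAVL genes, the ubiquitous ELAVL1 (HuR) was at 197.5 and 184.8 CPM. ELAVL2 held 10.3% of the family in parental cells and 0% in resistant cells. The neuronal ELAVL3 had 0 counts in both and ELAVL4 had 5 and 0.

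ENO2 held 0.913% and 1.57% of the enolase level, since the glycolytic ENO1 was at 1958 and 2281 CPM. The muscle form ENO3 (11 and 13 counts) and ENO4 (15 and 14) were scarce. Of the delta ligands, DLL3 held 56.3% and 82.7%, beside DLL4 with 20 and 27 counts and DLL1 with 0 and 3. SYPL1, the widely expressed relative of synaptophysin, was 2.10-fold lower in the resistant library (1.98 to 2.21), at 237.0 and 113.1 CPM, and SYPL2 had 12 and 6 counts. NCAM2 and CHGB, the second chromogranin gene, had 0 counts in both. INSM2 had 2 and 11.

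SYT1 was a minor synaptotagmin in both libraries, at 0.0758% and 1.21% of the family's length-scaled level. SYT17, a form that does not bind calcium, held 61.2% and 19.0%, at 542 and 279 counts (log2 ratio -0.97). SYT12 led the resistant library with 54.0%, against 11.5% in the parental one. It was 7.81-fold higher (6.44 to 9.56), from 6.89 to 53.9 CPM. SYT16 had 5 and 199 counts (39.5-fold, 16.6 to 122.9). SYT7, a calcium sensor of lysosome and granule release, was 4.06-fold lower (3.09 to 5.42), at 262 and 65 counts. SYT15 had 169 and 204 counts. The remaining 11 members were below 1 CPM in both libraries, and 3 of them had 0 counts in both. Over the 5 compared members of the list without SYT1, 2 were higher and 1 lower.

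**Figure D2:**
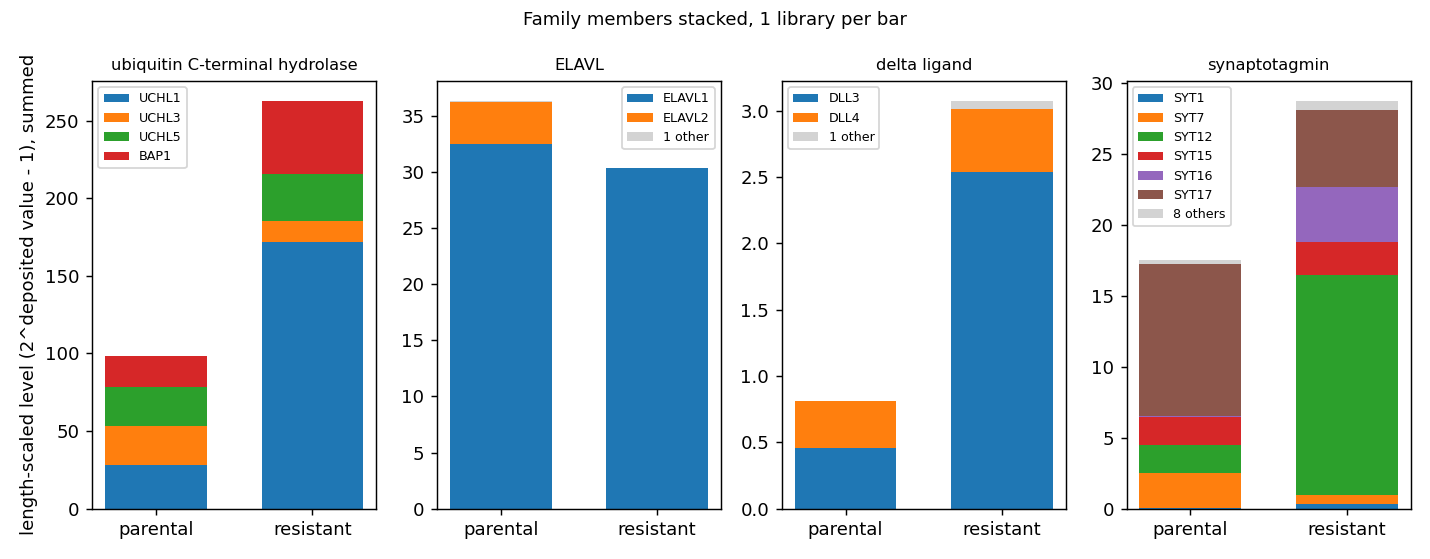
Length-scaled levels of 4 gene families, stacked by gene, with 1 library per bar and an axis for each family that starts at 0. UCHL1 grows to 65.4% of its family, ELAVL2 is missing from the resistant bar, DLL3 makes up most of the delta ligands there, and SYT12 takes the place of SYT17 as the leading synaptotagmin.

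The gene lists around the markers are given beside the shares of all compared genes, 12.1% higher and 8.29% lower, and their overall median log2 ratio of 0.00. The lists too were chosen with results of these data known, so nothing is read from their numbers of calls against these shares. Where a gene passed the filter in 1 library alone, the filter fixed its direction. This holds for FOXA2, PROX1, POU3F2, DLK2, SRRM4, PCSK1N, GAST and VAMP1, among others. Of 30 transcription factors on the neuroendocrine list, which are not all specific to such cells, 11 were compared, 1 was higher and 6 were lower (median -1.02). NEUROD1, a factor of neural and endocrine differentiation, had 0 counts in both libraries. POU2F3, the factor of the tuft-like class, had 2 and 5 counts. POU3F2 (BRN2), a neural POU factor, was 102.3-fold higher (46.7 to 279.9) with 6 and 619 counts. FOXA2, with 19 and 0 counts, was at least 4.71-fold lower by its interval (6.39-fold with the 0 set at 3 counts). PROX1 had 40 and 1 counts (40.3-fold lower, 6.83 to 1632), and POU4F1 had 94 and 38. FOXA1, with the highest mean CPM, was at 136.9 and 80.1 CPM (-0.77). The 6 lower calls were 3 with a minimum of 5 CPM and 0 by deposited log2 value, and without a CPM filter the median became -0.13.

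NOTCH ligands and the repressors they induce, which restrain neuroendocrine fate, had 1 of 8 compared members higher and 3 lower, with a median of -0.33. HEY1 was 13.1-fold lower (9.92 to 17.6), the ligand gene JAG1 3.56-fold (3.11 to 4.09) and HES1, a transcriptional repressor induced by NOTCH, 2.53-fold (2.16 to 2.97). DLK2 had 5 and 22 counts, and JAG2, with the highest mean CPM of the list, was at 99.6 and 106.6. The call of DLK2 was lost with at least 5 CPM, with the deposited values and when the whole interval had to lie beyond 2-fold. At 4-fold, 1 of the lower calls remained. The median was -1.34 with at least 5 CPM and 0.10 without a filter. So DLL3 and DLK2 were called higher while HEY1, HES1 and JAG1 were called lower in the same library. The other 4 compared genes of the list were not called, among them HEYL with 18 and 36 counts (0.97), named after its value was seen. NOTCH activity was not tested. REST itself had 1022 and 1140 counts (0.15). Of the 13 compared genes of REST and its corepressors, 12 passed in neither direction, with a median of -0.22, and KDM1A, with the highest mean CPM of the list, was at -0.57. With the deposited values the median was -0.10. The exception was SRRM4, a neural splicing factor that acts on REST transcripts, with 0 and 18 counts. It was at least 4.36-fold higher by its interval (5.95-fold with the 0 set at 3 counts), a call lost with a minimum of 5 CPM and with the deposited values.

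Genes of granule content, prohormone processing and amine transport were mostly scarce: 7 of 27 were compared, 2 were higher and 1 lower, and 11 had 0 counts in both libraries. PCSK1N, an inhibitor of a prohormone convertase, had 0 and 155 counts and was at least 41.2-fold higher by its interval (51.2-fold with the 0 set at 3 counts). GAST, which encodes the peptide hormone gastrin, had 1 and 112 counts (111.1-fold, 19.5 to 4426). VGF, a granin-like gene, was 2.07-fold lower (1.81 to 2.37), at 38.7 and 18.7 CPM. That lower call was lost with the deposited values, at 4-fold and when the whole interval had to lie beyond 2-fold. Without a CPM filter, 4 genes of the list were higher. CPE, carboxypeptidase E of the prohormone pathway and the gene with the highest mean CPM, was at 142.3 and 200.7 CPM (0.50).

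The machinery of vesicle docking and release had more compared members, 23 of 35. Of these, 10 were higher and 3 lower (median 0.36), or 6 higher and 3 lower with the deposited log2 values. At 4-fold, 5 higher and 0 lower calls remained, and 9 higher and 1 lower when the whole interval had to lie beyond 2-fold. The active zone scaffold gene PCLO was 12.9-fold higher (8.86 to 19.3), at 1.78 and 22.9 CPM. RAB3B, a small GTPase of secretory vesicles, was 7.44-fold higher (5.38 to 10.5). VAMP1 had 3 and 31 counts (10.2-fold, 3.20 to 52.4) and RIMS1 had 0 and 25. The 3 lower ones, of which 2 are named after their values were seen, were SYPL1, the plasma membrane SNARE gene STX1A (-1.88) and RAB27B (-1.07). SYNGR2, with the highest mean CPM, was at -0.47.

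Genes of the neuronal cytoskeleton had 6 of 13 compared members higher and 2 lower, with a median of 0.45. The median was 1.05 with a minimum of 5 CPM, 0.89 without a filter and 0.29 with the deposited values, which gave 0 lower calls. The microtubule-associated protein gene MAP1B went from 61 to 5468 counts, or from 3.62 to 322.1 CPM (88.9-fold, 69.1 to 116.4). DPYSL3, a collapsin response mediator, was 46.3-fold higher (27.4 to 85.1) and MAP2, a dendritic microtubule protein, 7.47-fold (5.50 to 10.4). TUBB4A had 15 and 211 counts. The lower members included the tau gene MAPT (-1.48), named after its value was seen. BASP1, with the highest mean CPM, was at 465.0 and 568.7 CPM. The neurofilament genes NEFL and NEFH and the immature neuron gene DCX, also named after their values were seen, had 0 and 1, 0 and 5, and 1 and 2 counts.

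Neuronal RNA-binding proteins other than ELAVL2 split, with 1 of 8 compared members higher and 2 lower and a median of -0.05. The splicing regulator gene CELF2 had 7 and 763 counts (108.1-fold higher, 52.2 to 269.8). CELF3, a brain-enriched splicing regulator, had 25 and 2 (12.6-fold lower, 3.14 to 109.8), and the splicing factor gene SRRM3 was at -1.92. The 2 lower calls were 1 with a minimum of 5 CPM and 0 with the deposited values, and the median was -0.15 without a filter. Among neural adhesion molecules of the immunoglobulin class, 1 of 7 was higher and 1 lower, with a median of -0.42 that turned to 0.06 with at least 5 CPM. That higher gene was L1CAM, which encodes a neural adhesion molecule also made by many carcinomas. It had 31 and 4156 counts, or 1.84 and 244.8 CPM (133.0-fold, 93.5 to 195.9). CADM1 was 3.60-fold lower (2.77 to 4.72), and ALCAM, with the highest mean CPM, was at 126.9 and 132.5 CPM.

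**Figure D3:**
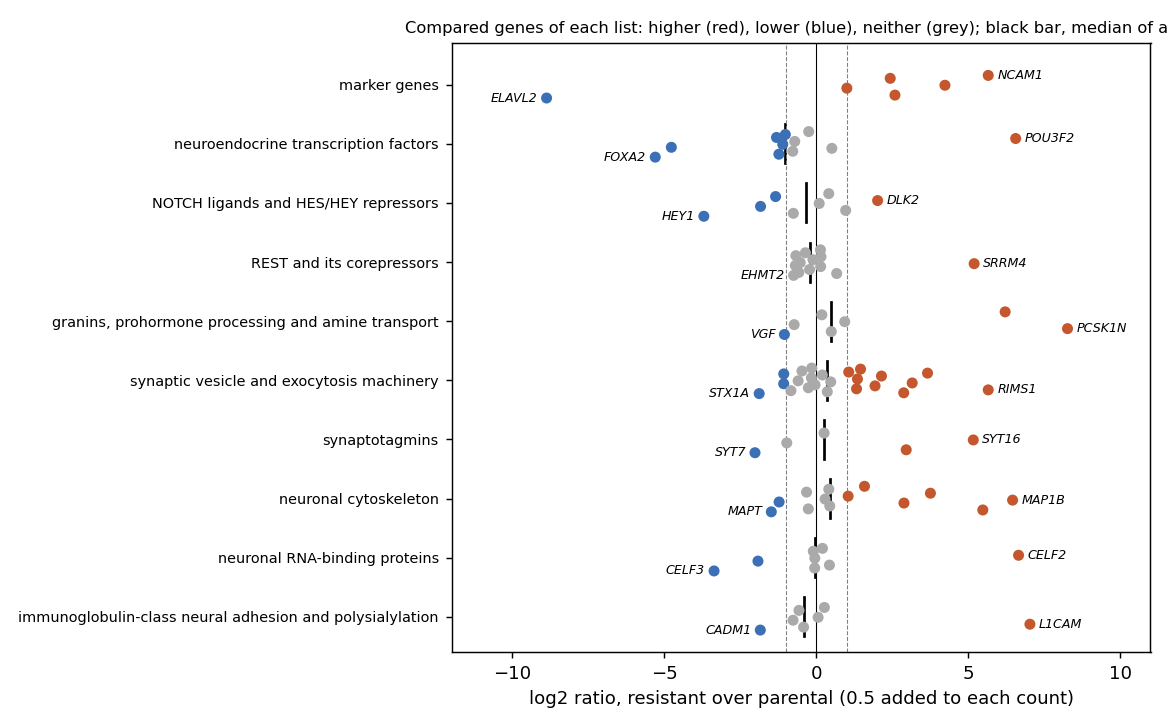
Log2 ratio of each compared gene, resistant over parental, for the marker genes and 9 related lists, with the median of each related list as a black bar and dashed lines at 2-fold. Called genes are red (higher) or blue (lower), and the lowest and highest gene of each list is named. The compared transcription factors lie mostly to the left, with POU3F2 far to the right, while vesicle and cytoskeleton genes spread to the right.

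The genes most like UCHL1 over the 2 libraries, by the Euclidean distance of log2(CPM + 0.5), were the mitochondrial outer membrane gene MTX2 (distance 0.161, 414 and 2947 counts), the carboxypeptidase M gene, whose symbol is also CPM (0.188, 399 and 2676), and the WNT receptor gene FZD4 (0.221, 435 and 2381). Those most like ELAVL2 were FAM110C (0.0817, 246 and 0 counts), the receptor gene GPR39 (0.344, 207 and 2) and the cadherin gene CDH7 (0.414, 172 and 0). Over 2 libraries such likeness is only a likeness of levels.

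The markers lie on 8 chromosomes, and their neighbours were read for shared position. Around each gene the 3 nearest compared protein-coding genes on each side were taken, by RefSeq order. Of these 54 neighbours, 8 were higher and 1 lower, where 12.1% and 8.29% of all compared genes were. An effect of position was not tested. Around ELAVL2 on chromosome 9, 0 of 6 were called, with ratios from -0.98 to 0.86: CDKN2A had 1313 and 937 counts, DMRTA1 45 and 83, and TUSC1, on the other side, 283 and 144. Around DLL3 and ENO2, 0 of 6 were called as well. Next to UCHL1, LIMCH1 (8190 and 9898 counts), APBB2 (626 and 710) and TMEM33 (2463 and 2550) were within 2-fold, and NSUN7 (11 and 66) was higher. Near SYT1, 3 of 6 were higher, among them NAV3 with 0 and 229 and PTPRQ with 0 and 27 counts. Neighbours were named after their values were seen.

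**Figure D4:**
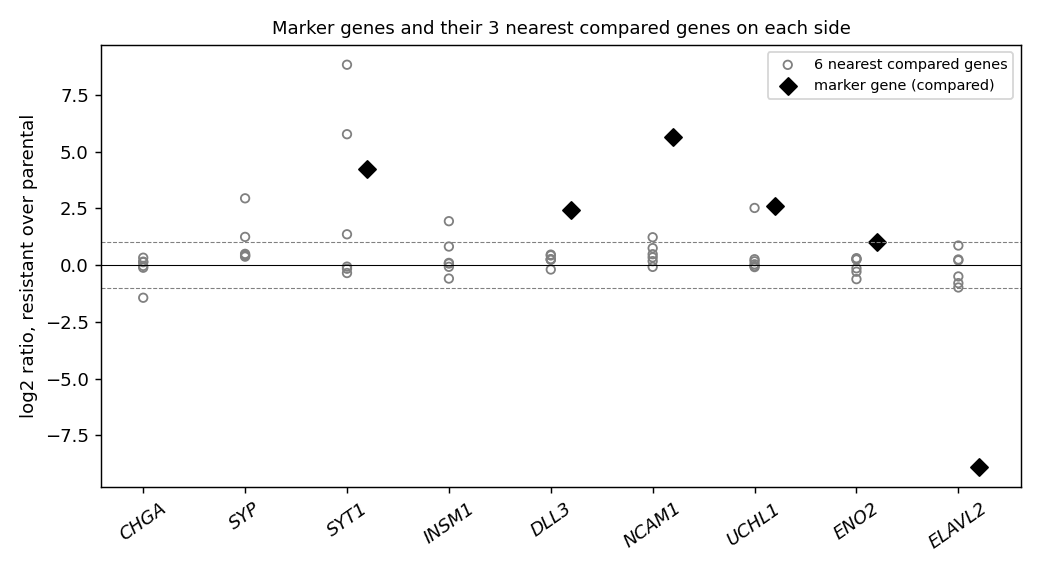
Log2 ratio (resistant over parental) of each compared marker gene (black diamond) and of its 3 nearest compared genes on each side (open circles), with dashed lines at 2-fold. The neighbours of ELAVL2, DLL3 and ENO2 stay within the dashed lines, while NAV3 and PTPRQ beside SYT1 lie above SYT1.

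Markers of other cell types were read in the same libraries. Of 16 lung and epithelial genes, 6 were compared, 0 were higher and 1 was lower (median -0.29, or -0.01 without a filter). The keratin gene KRT8 was at 2666 and 3394 CPM, KRT7 had 26946 and 28206 counts, and EPCAM was 2.38-fold lower in the resistant library (2.27 to 2.49). The keratin gene KRT19 was at -0.63 and the cadherin gene CDH1 at -0.69, neither past the threshold. The 8 fibroblast markers summed to 20.9 and 15.1 CPM, nearly all from COL1A1. The 7 immune markers summed to 87.7 and 34.3 CPM, mostly from the lysosomal gene CD68, and CD3E and TYROBP were at 0 in both. Of these immune markers 3 were compared, with 1 higher and 2 lower, or 0 higher and 1 lower with the deposited log2 values. The 7 glial markers summed to 86.9 and 80.7 CPM, nearly all from MBP. The 4 endothelial markers summed to 0.356 and 29.2 CPM, all but 1 resistant count from CDH5 (5 and 495 counts), while KDR was at 0 in both and PECAM1 and VWF had 1 and 0, and 0 and 1. The part of other cells in the values of the marker genes was not tested. UCHL1, NCAM1, SYT1 and SYP share 135, 552, 14 and 68 exon bases with annotated genes on the opposite strand in GENCODE v29. The strand setting of the counting is not stated, and the part of antisense reads was not tested.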

How the data were processed

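RNA was measured in 1 parental and 1 resistant library, made from total RNA with a TruSeq kit, per the labels' protocols. The authors deposited raw counts per gene symbol, whole numbers, per the file headers. Beside these the authors deposited normalized log2 values, named so in the file headers and made by a method not given in the sources used here. FastQC and STAR are named without version, and GRCh38 and hg19 without a role, per the submitters' processing notes. The counting program, its annotation and its strand setting are not given in the sources used here, so coordinates are printed only with the RefSeq sequences.

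Library sizes were scaled by TMM (edgeR 4.0.16, R 4.3.3) to 16834058 and 16974207. Log2 ratios had 0.5 added to each count. Intervals are exact at 95%: Poisson for a level and conditional binomial (Clopper-Pearson, scipy 1.17.1) for a ratio. Reads are not independent molecules, so they cover counting error only. Folds against 0 counts are given as the near limit of that interval and with 3 counts in place of the 0. The ratio and call functions were tested on simulated data. The members and the 17 lists (253 genes) were chosen with earlier results of these data known. Of each list the text names up to 4 called genes with the largest ratios and the most abundant gene, beside the families of the members and a few regulators whatever their values; other genes are said to be named after their values were seen, or belong to the marker lists of other cell types. A list of 8 genes on small cell subtype, RB and p53 context, YAP1 (0.77) among them, had 0 calls in either direction. Alternatives covered scaling (DESeq2 1.42.0), filter, prior, call rule and the deposited values. The value of 1 gene of the transcription factor list is not reported here.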

Additional observations from a re-analysis of the deposited data

How the results depend on the processing

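Of the marker genes called higher, 2 remained in number with at least 5 CPM and 2 with a difference of 1 in the deposited log2 values, against 5. Over all genes, 774 were called higher and 359 lower at 4-fold, 926 and 591 with the deposited log2 values, and 655 lower when the whole interval had to lie beyond 2-fold, against 1480 and 1015. ENO2 lost its call with total counts (0.99), at 4-fold, with the whole interval (1.01 in both) and with the deposited values (0.935). SYT1 (0.41) and NCAM1 (0.317) lost theirs with the deposited values. At 5 CPM, DLL3, SYT1 and NCAM1 left the comparison. In 39 other settings of the markers called, the call and its direction held. DESeq2 size factors and a prior of 2 changed the call of 0 markers. Medians changed sign for NOTCH ligands and repressors without a CPM filter (0.10) and for neural adhesion genes with at least 5 CPM or no filter (0.062 in both). By CPM per kilobase of the longest GENCODE transcript, an alternative chosen after seeing the data, UCHL1 held 25.2% and 60.2% of its family, while SYT1 held 2.10%, SYT16 5.14% and SYT7 4.83% of theirs in the resistant library, against 1.21%, 13.4% and 2.14%. No paired analysis was possible because each line has 1 library, and no library could be left out. Counts under about 10 in both libraries, as for CHGA, INSM1 and SYP, limit any statement on these genes.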
